A study of Danio rerio with 8 samples.

Results

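Complement is a cascade of plasma proteins, most of them made by hepatocytes, that marks microbes and damaged cells for removal. The classical pathway (C1q, C1r, C1s) and the lectin pathway (sugar-binding lectins) start it, the alternative pathway (factor B) amplifies it, all of them converge on cleavage of C3, and C5 to C9 then assemble a pore in the target membrane. Zebrafish carry several C3 genes where mammals have 1. The 6 complement component genes described here take 1 role each along this cascade, except that C3 has 2 of them. They are the C1s protease c1s.2 (NM_001114449), the hexose-binding lectin hbl4 (NM_001114725), factor B, cfb (NM_131338), the C3 genes c3a.2 (NM_131243) and c3b.1 (NM_001100013), and the gamma chain of C8, c8g (NM_200863). They were found by matching the RefSeq accession of each row to zebrafish gene symbols. All 6 were listed in all 8 libraries and are 6 of 15600 listed transcript rows.

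The libraries came from zebrafish liver and were sequenced on the SOLiD platform as 3' RNA-SAGE, an assay in which every transcript is represented by a single short tag from its 3' part. There were 4 groups of 2 libraries, named for the Myc transgene (M) and doxycycline (D). M-D- fish were wild-type siblings without treatment, and M-D+ fish were wild-type siblings given doxycycline. M+D- and M+D+ fish carried Tg(fabp10:TA; TRE:Myc; krt4:GFP), in which the liver promoter fabp10 drives a transactivator (TA) that acts on a Myc gene behind TRE, with a green fluorescent reporter behind krt4. M+D- fish were untreated, and M+D+ fish received doxycycline and gave the libraries that the submitters call liver tumour. Treatment began at 21 days after fertilization, in 6-litre tanks of about 25 fish. The age at sampling, the number of fish behind a library and the source of the Myc sequence are not given in the labels used here. The labels do not state whether paired libraries within a group are separate fish, and p-values therefore rest on library-to-library spread, which could be technical only.

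Levels are in CPM, the tags of a row scaled by the authors to the total of its library. A transcript gives 1 tag position, so these levels are not divided by transcript length. Totals lay between 1682372 tags (M-D+ library 1) and 6399932 tags (M+D+ library 1), and 3 tags, the most that a value of 0 allows, correspond to 0.469 to 1.78 CPM (counting error only). Log2 changes are on the log2(CPM + 1) scale with their standard error, and a change was called at an adjusted p below 0.05 over the 4577 rows with at least 5 CPM in at least 2 libraries. In bulk tissue, fewer cells of a type and less RNA per cell cannot be told apart. Because CPM are shares of a library, levels in M+D+ were also compared after TMM scaling, which resets each library on the bulk of its rows. For M+D+ compared with the averaged 3 control groups, all rows had a median log2 change of -0.57 in CPM and -0.08 after TMM scaling. TMM factors of 1.57 and 1.46 (M-D+) and of 0.702 and 0.806 (M+D+) lay outside the 0.868 to 0.98 of the remaining libraries.

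In M+D+ livers the C3 gene c3a.2 stood above every control library. The lectin hbl4, the C1s protease c1s.2 and the C8 chain c8g stood below every control library. The other C3 gene, c3b.1, also stood above every control. Among tested rows that place was fixed, because c3b.1 reached 5 CPM in the 2 M+D+ libraries and in no control library. Factor B, by far the most abundant of the 6, overlapped with the controls. Against the mean of the controls the change was 5.23-fold up for c3a.2 and 2.32-fold up for c3b.1, and 6.99-fold down for hbl4, 2.96-fold down for c1s.2 and 2.73-fold down for c8g. The members were picked with earlier calls in this comparison in view, so their being called here is a description. Of all tested rows, 2.32% were called higher and 20.7% lower in this comparison. Both M+D+ libraries lay above all 6 control libraries in 3.87% of the tested rows and below them in 26.9%.

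**Figure D1:**
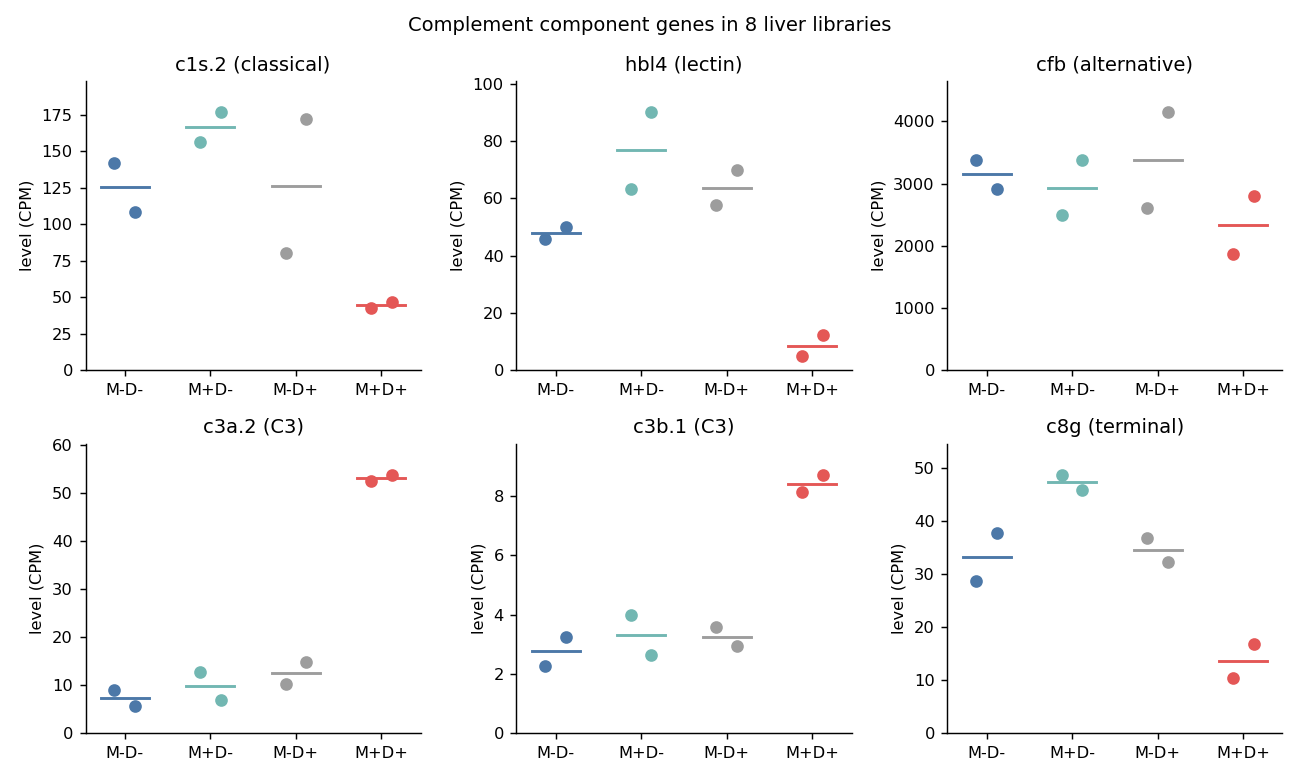
Level of each of the 6 complement genes (CPM, linear axis from 0) in the 8 libraries, by group; points are libraries and lines are the means of the 2 libraries of a group. The 2 M+D+ libraries lie above all 6 control libraries for c3a.2 and for c3b.1, which reached 5 CPM only in M+D+. They lie below all 6 for c1s.2, hbl4 and c8g. For cfb, M+D+ library 2 lies among the controls.

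The gene hbl4 encodes a collectin related to mammalian mannose-binding lectin, which binds sugars on microbial surfaces. Its level was 45.66 and 50.09 CPM (M-D-), 63.34 and 90.18 CPM (M+D-), 57.66 and 69.77 CPM (M-D+) and 5 and 12.22 CPM (M+D+). These 2 tumour values rest on 32 and 35 tags, and the highest of their 95% counting limits, 17.0 CPM (exact Clopper-Pearson), lay below the lowest control value. The log2 change against the mean of the controls was -2.80 ± 0.33 (limma adjusted p = 0.00515). It was the only member called in every setting tried for this comparison, 17 of 17, with log2 changes from -3.37 to -2.23. The fall was also called against each control group alone, at -2.45 ± 0.41 against M-D-, -3.10 ± 0.41 against M+D- and -2.85 ± 0.41 against M-D+ (limma adjusted p = 0.0228, 0.0174 and 0.00375). After TMM scaling these 3 changes were -2.21, -2.81 and -1.90, each still called (adjusted p = 0.0259, 0.019 and 0.0211). With 1 library left out, 5 of 8 fits lost the call against M-D- (adjusted p from 0.053 to 0.125) and 5 of 8 that against M+D- (0.0559 to 0.194), in both cases those without any 1 library of M-D- or M+D- or without M+D+ library 1, and all 8 kept it against M-D+.

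The gene c1s.2 encodes a protease that in mammals is activated by C1r on bound C1q and cuts C4 and C2. Its level was 141.98 and 108.63 CPM (M-D-), 155.95 and 176.82 CPM (M+D-), 80.24 and 172.38 CPM (M-D+) and 42.66 and 46.79 CPM (M+D+). The M+D+ libraries were close to each other and below all others, and the nearest control was the shallow M-D+ library 1. The log2 change against the mean of the controls was -1.57 ± 0.32 (limma adjusted p = 0.0151), which is 1 unit below the median of all rows. The call did not hold after TMM scaling (-1.03, adjusted p = 0.0896), in edgeR and DESeq2 on recovered tags, and without M+D+ library 1 or 2 (adjusted p = 0.0955 and 0.0544). Against M-D- alone the change was -1.45 ± 0.39 in CPM (limma adjusted p = 0.0645) and -1.17 after TMM scaling (adjusted p = 0.135), called in neither. Against M-D+ alone the change was -1.38 ± 0.39 in CPM (limma adjusted p = 0.0233) and -0.38 after TMM scaling (adjusted p = 0.575). The call in CPM against M-D+ was lost without M-D+ library 2 or either M+D+ library. Against M+D- it was -1.87 ± 0.39 (limma adjusted p = 0.0473), a call that TMM-scaled values did not give (adjusted p = 0.102) and that was missing in 6 of 8 fits without 1 library, those without any 1 library of M-D-, M+D- or M+D+ (0.087 to 0.282).

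The partner of c1s.2 in the same complex, c1r, lies next to it in the RefSeq gene table. Its level was 26.80 and 20.82 CPM (M-D-), 22.51 and 20.78 CPM (M+D-), 23.18 and 33.30 CPM (M-D+) and 12.66 and 27.58 CPM (M+D+), so the groups overlapped. Its log2 change was -0.35 ± 0.33 in CPM (limma adjusted p = 0.443) and 0.17 after TMM scaling. A ratio of 2 genes within a library does not depend on how libraries are scaled. There were 3.46 to 8.51 tags of c1s.2 for each tag of c1r in the 6 control libraries, and 3.37 and 1.70 in M+D+ libraries 1 and 2, so that M+D+ library 1 stood just below the lowest control. That lowest control, M-D+ library 1, had 39 tags of c1r and M+D+ library 1 had 81. No counting limits were set on these ratios. Tags of c1s.1, which RefSeq lists as a non-coding RNA, were at most 1.55 CPM in any library.

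C3 is the protein on which the pathways converge, and its cleavage products coat targets and attract leukocytes. The level of c3a.2 was 8.86 and 5.64 CPM (M-D-), 12.75 and 6.85 CPM (M+D-), 10.10 and 14.72 CPM (M-D+) and 52.50 and 53.77 CPM (M+D+). The M+D+ libraries, with 336 and 154 tags, were nearly equal to each other, and the lowest of their 95% counting limits was 45.6 CPM, against a highest control limit of 18.8 CPM. The log2 change against the mean of the controls was 2.39 ± 0.31 (limma adjusted p = 0.0064), which placed c3a.2 at percentile 99.7 of all tested rows. After TMM scaling it was 2.91 (adjusted p = 0.00435). The call was lost in 1 of 17 settings, without M+D+ library 1 (log2 change 2.40, adjusted p = 0.054). It was higher than each control group alone, by 2.74 ± 0.38 against M-D-, 2.38 ± 0.38 against M+D- and 2.03 ± 0.38 against M-D+ (limma adjusted p = 0.0161, 0.0239 and 0.00674). With the replicate block the call against M+D- was lost (limma adjusted p = 0.0508). With 1 library left out, the call was lost in 3 of 8 fits against M-D- (without either M-D- library or M+D+ library 1, adjusted p from 0.0709 to 0.125), in 6 of 8 against M+D- (those without any 1 library of M-D-, M+D- or M+D+, 0.0591 to 0.216) and in 0 of 8 against M-D+.

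The second C3 member, c3b.1, was scarce. Its level was 2.27 and 3.25 CPM (M-D-), 3.98 and 2.65 CPM (M+D-), 3.57 and 2.94 CPM (M-D+) and 8.13 and 8.73 CPM (M+D+), from 6 to 20 tags in the controls and 52 and 25 tags in M+D+. It reached 5 CPM in the 2 M+D+ libraries and in no control library, so it entered the test only through the group where it is high, and its call lends no support of its own. The log2 change was 1.21 ± 0.31 (limma adjusted p = 0.0292), 1.68 after TMM scaling, and 1.99 in edgeR on recovered tags (adjusted p = 0.0134). Without the filter on low values its adjusted p was 0.0746, and 6 of the 8 fits that left out 1 library did not call it, those without either M-D-, M+D- or M+D+ library (adjusted p from 0.0556 to 0.133). Compared with M-D- and M+D- alone its adjusted p was 0.0566. The 95% counting interval of M+D+ library 2 (5.65 to 12.9 CPM) overlapped that of M-D+ library 1 (1.31 to 7.76 CPM).

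The neighbour of c3a.2 in the RefSeq gene table, c3a.3, stood at 10.90 and 9.32 CPM (M-D-), 16.93 and 19.23 CPM (M+D-), 10.10 and 17.67 CPM (M-D+) and 16.25 and 26.88 CPM (M+D+), where the groups overlapped (log2 change 0.60 ± 0.30, limma adjusted p = 0.175, and 1.11 after TMM scaling, adjusted p = 0.0511). The neighbour of c3b.1, c3b.2, stood at 2.99 to 5.53 CPM in the controls and at 6.25 and 10.13 in M+D+ (log2 change 0.91 ± 0.34, limma adjusted p = 0.0851). It reached 5 CPM in the 2 M+D+ libraries and in 1 control library, so that it too passed the filter only through the group where it is high. Its change after TMM scaling was 1.37 (adjusted p = 0.0393). The last row, c3a.6, stayed at 0.8 to 4.89 CPM and was not tested. Within libraries, c3a.2 had 0.356 to 1 tags for each tag of c3a.3 in the 6 controls and 3.23 and 2 in M+D+. The share of c3a.2 in the summed level of the 5 C3 rows was 18.3% to 34% in the controls, and 62.0% and 51.5% in M+D+. The sources used here do not say how tags shared by near-identical C3 transcripts were assigned, so the split between these genes is uncertain. Of 9 C3 symbols listed, 5 had a row, and other C3 genes (c3a.1 and c3a.5) were not analysed here.

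**Figure D2:**
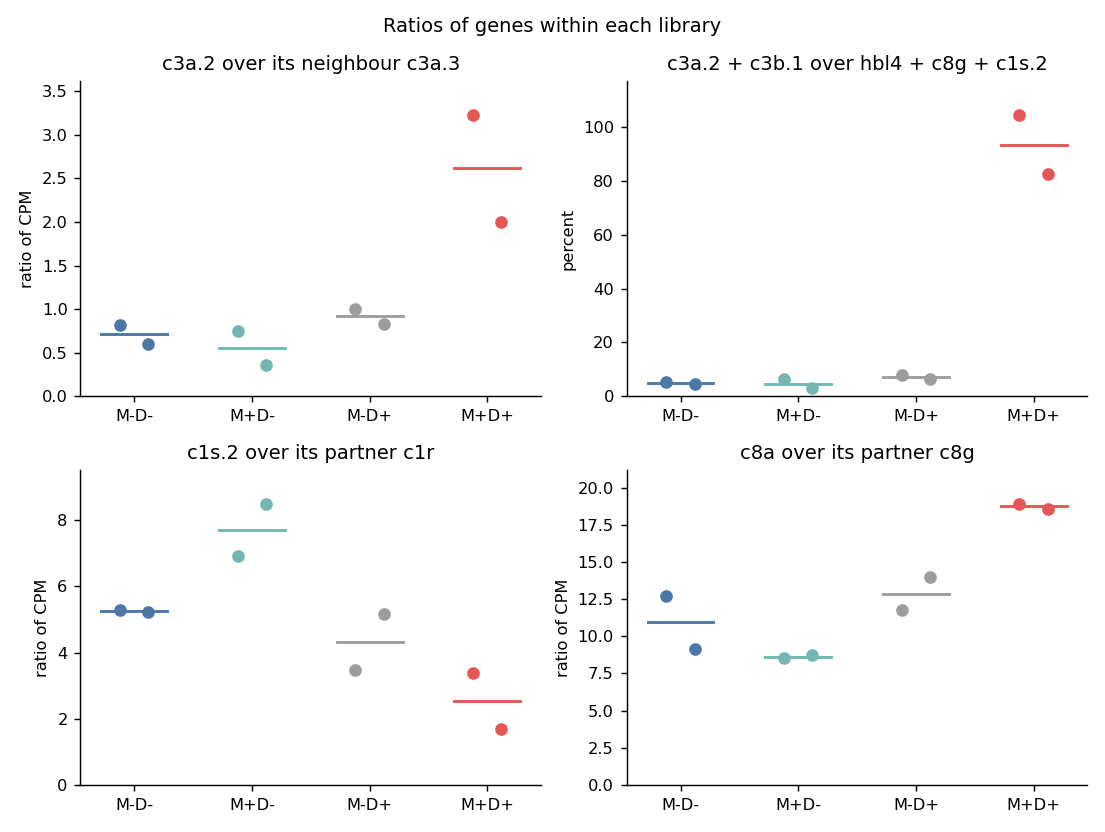
Ratios of 2 genes or gene sums within each library (linear axes from 0; points are libraries, lines are means of the 2 libraries of a group). In M+D+, c3a.2 passes its neighbour c3a.3 (3.23 and 2). The C3 members there reach 105% and 82.5% of the summed hbl4, c8g and c1s.2, a ratio without cfb that was added after the data were seen. The ratio of c1s.2 to c1r is below every control, but only just in M+D+ library 1 (3.37, against 3.46 in M-D+ library 1). The ratio of c8a to c8g is above every control. No counting limits were set on these ratios.

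Factor B, cfb, supplies the protease of the alternative pathway convertase that cuts C3. It was the most abundant complement row and held 44.5% to 67.2% of the summed level of all 30 complement rows in every library. Its level was 3384.92 and 2921.63 CPM (M-D-), 2495.19 and 3374.39 CPM (M+D-), 2612.98 and 4151.69 CPM (M-D+) and 1873.14 and 2802.31 CPM (M+D+). The lowest value was in M+D+ library 1, and M+D+ library 2 lay within the range of the controls. The log2 change against the mean of the controls was -0.44 ± 0.30 in CPM (limma adjusted p = 0.295), while its sign turned to 0.11 after TMM scaling (adjusted p = 0.858), and it stood 0.13 above the median of all rows. No setting called cfb in this comparison. With 4396 or more tags in each library, counting error was small beside the spread between libraries of a group.

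C8 is one of the pore-forming complex's subunits, and c8g encodes its gamma chain, a lipocalin. Its level was 28.62 and 37.73 CPM (M-D-), 48.80 and 45.97 CPM (M+D-), 36.85 and 32.39 CPM (M-D+) and 10.31 and 16.76 CPM (M+D+). Both M+D+ libraries were below all controls. The log2 change was -1.45 ± 0.26 (limma adjusted p = 0.012) and -0.94 after TMM scaling (adjusted p = 0.0422). The call was lost in DESeq2 on recovered tags (-0.92, adjusted p = 0.0863) and without M+D+ library 1 (-1.13, adjusted p = 0.0849). Against M-D+ alone the change was -1.33 ± 0.32 in CPM (limma adjusted p = 0.0147) and -0.36 after TMM scaling (adjusted p = 0.426). Against M+D- it was -1.77 ± 0.32 and -1.46 (limma adjusted p = 0.0339 and 0.0497). Against M-D- it was -1.26 ± 0.32 and -0.99 (limma adjusted p = 0.0619 and 0.0855), called in neither. The call against M+D- was lost in 5 of 8 fits without 1 library, those without any 1 library of M-D- or M+D- or without M+D+ library 1 (adjusted p from 0.0698 to 0.226), and that against M-D+ without M+D+ library 1 (0.0749).

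The alpha chain gene c8a, whose product pairs with the gamma chain, stood at 345 to 454 CPM in the controls and at 195 and 311 CPM in M+D+ (log2 change -0.70 ± 0.25, limma adjusted p = 0.0744). That change is 0.13 below the median of all rows. There were 8.54 to 14.0 tags of c8a for each tag of c8g in the controls, and 18.9 and 18.6 in M+D+. The gamma chain therefore stood lower relative to its partner in both M+D+ libraries than in any control library. In M+D+ these ratios rest on 66 and 48 tags of c8g, and no counting limits were set on them.

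Set against each other within each library, the C3 members and the other components stood in different proportions in M+D+ and in the controls. The summed level of c3a.2 and c3b.1 was 3.04% to 7.82% of that of hbl4, c8g and c1s.2 in the 6 controls, and 105% and 82.5% in M+D+ libraries 1 and 2. This version, which leaves out cfb, was added after the data were seen. With cfb among the other components, there were 2.58 to 6.05 tags of the C3 members for each 1000 of the others in the controls, and 31.4 and 21.7 in M+D+. On the log2 scale the M+D+ mean of that ratio was 2.81 above the mean of the control groups, with a pooled SD between libraries of a group of 0.49 (n = 2 each). The members were chosen with such differences in view, so no test is given for it. With all tested C3 rows over all tested rows of the pathways the difference was 2.15. Of those C3 rows, c3b.1 and c3b.2 passed the filter only through M+D+, and c3a.6 was left out by it. This difference therefore lends no support of its own.

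**Figure D3:**
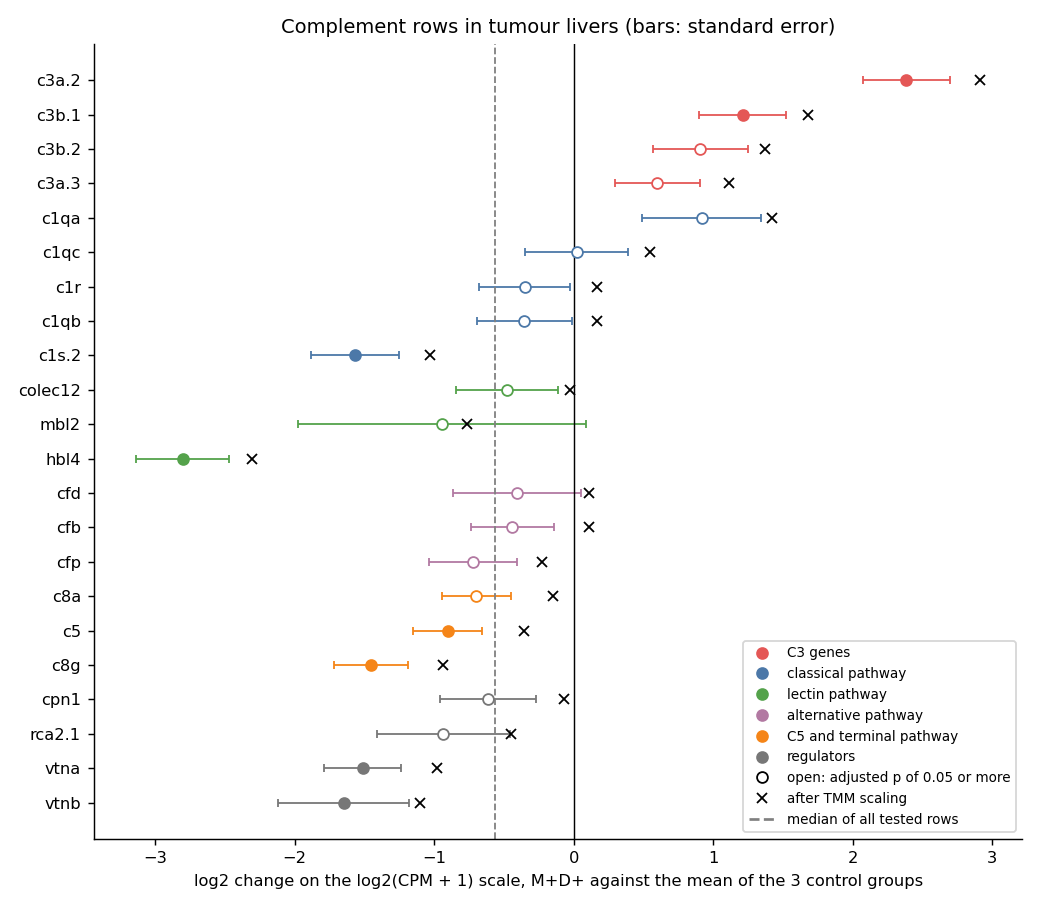
Log2 change of the 22 tested complement rows in M+D+ relative to the averaged 3 control groups (circles with standard error, filled where the limma adjusted p was below 0.05; crosses, change after TMM scaling; dashed line, median of all tested rows at -0.57). The 4 C3 rows lie to the right of 0 in both scalings, and hbl4 lies farthest to the left. Of the C3 rows, c3b.1 and c3b.2 passed the filter only through M+D+, and c3a.3 overlapped with the controls.

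Of 76 symbols on the lists of complement genes, 30 had a row and 22 passed the filter on low values. Among these 22 rows limma called 2 higher (c3a.2, and c3b.1, which passed the filter only through M+D+) and 6 lower, which were hbl4, c1s.2, c8g, c5, vtna and vtnb. The count of falls is near the background of 20.7%, and the median log2 change of the 22 rows (-0.55) was close to that of all rows (-0.57). After TMM scaling hbl4, c8g and vtna were called lower and c3a.2 higher, with 5.05% of all rows called lower and 5.86% higher, and c3b.1 and c3b.2, which passed the filter only through M+D+, were called higher as well. Both M+D+ libraries lay below all 6 controls in 7 of the 22 rows (26.9% of all tested rows). They lay above all 6 for c3a.2 and for c3b.1 and c3b.2 (3.87% of all tested rows), and no count is read from these because of the filter. Of the 10 receptor symbols, none was matched to a row.

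Outside the members, c5, the component cleaved to begin pore assembly, stood at 330 to 547 CPM in the controls and at 233 and 231 CPM in M+D+ (log2 change -0.90 ± 0.25, limma adjusted p = 0.035). TMM scaling removed its call (-0.36, adjusted p = 0.417), as did leaving out any 1 library of M-D-, M+D- or M+D+ (adjusted p from 0.068 to 0.151). The vitronectin genes vtna and vtnb encode plasma proteins that in mammals block insertion of the pore. They fell to 24.53 and 38.06 CPM from 53.49 to 142.24 for vtna (log2 change -1.51 ± 0.27, limma adjusted p = 0.0119), and to 125 and 380 CPM from 500 to 1462 for vtnb (-1.65 ± 0.47, limma adjusted p = 0.0395). For vtna the call was kept after TMM scaling (-0.98, adjusted p = 0.0427) and lost in edgeR (adjusted p = 0.0594) and without M+D+ library 1 (adjusted p = 0.0854), and vtnb was called in 6 of 17 settings, not including TMM scaling (-1.10, adjusted p = 0.138), with an adjusted p of 0.29 and a log2 change of -0.85 without M+D+ library 1.

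**Figure D4:**
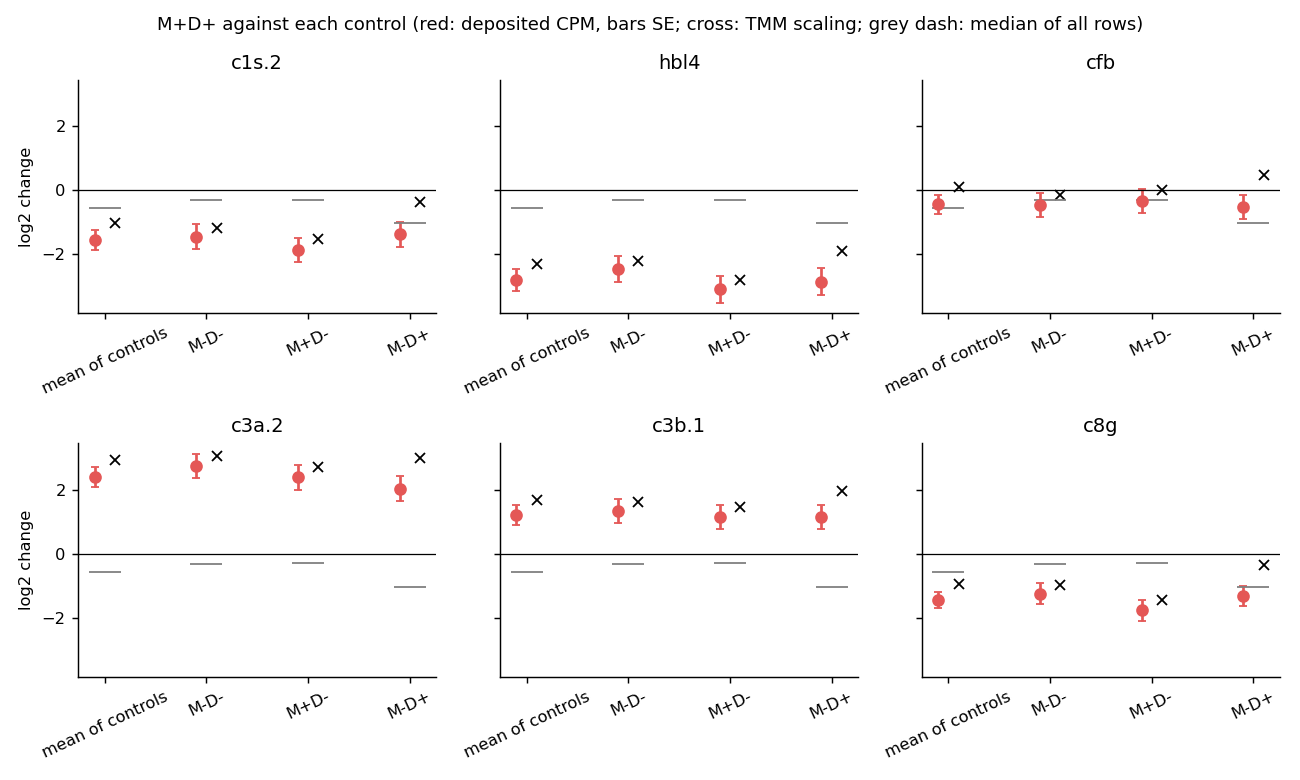
Log2 change of each member in M+D+ relative to the averaged controls and against each control group (red, deposited CPM with standard error; crosses, after TMM scaling; grey dashes, median of all tested rows). The comparisons share the M+D+ libraries. The C3 members lie above 0 and hbl4 below 0 in all 4 comparisons under both scalings. Of the C3 members, c3b.1 passed the filter only through M+D+. The changes of c8g and c1s.2 come close to 0 against M-D+ after TMM scaling.

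The single control groups were also compared with M+D+, always with the same 2 tumour libraries. Against M-D- limma called 1 complement row higher (c3a.2) and 2 lower (hbl4 and vtna), with 1.35% of all rows called higher and 3.87% lower. Against M+D-, the same transgenic line without doxycycline, it called 1 higher (c3a.2) and 3 lower (hbl4, c1s.2 and c8g), with 0.393% of all rows called higher and 2.34% lower. Against M-D+ it called 2 higher (c3a.2 and c3b.1) and 7 lower (hbl4, c1s.2, c8g, vtna, c1qb, cfp and rca2.1), with 2.49% of all rows called higher and 41.7% lower. After TMM scaling hbl4 was the 1 row called lower, and c3a.2 and c3a.3 were called higher, as were c3b.1 and c3b.2, which passed the filter only through M+D+, with 8.32% of all rows called higher and 7.45% lower. The regulator row rca2.1 stood at 28.53 and 25.60 CPM in M-D+ and at 3.44 and 12.22 CPM in M+D+ (log2 change -1.87 ± 0.58, limma adjusted p = 0.0334), and its TMM-scaled change was -0.95 (adjusted p = 0.269). For c3b.1 the change was 1.34 ± 0.38 against M-D-, 1.14 ± 0.38 against M+D- and 1.15 ± 0.38 against M-D+ (limma adjusted p = 0.0756, 0.134 and 0.0409).

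Without tumours, the members did not pass a test. In M+D- against M-D-, which asks what the uninduced transgene does, limma, edgeR and DESeq2 called 0 complement rows, and limma called 0 of all 4577 rows (0%). At an unadjusted p below 0.05, 2 of the 22 complement rows passed limma there, c1qa and vtna. The share of all rows at that threshold was not counted, so no result is read from this count. In M-D+ against M-D-, which asks what doxycycline does in wild-type liver, no member was called, and 3 other rows were higher, with 9.22% of all rows called higher and 0.568% lower.

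Those 3 rows were the C1q chains c1qb and c1qc, parts of the molecule that recognises antibody on a target, and cfp, which encodes properdin, a stabiliser of the alternative pathway convertase. The level of c1qc was 6.59 and 8.89 CPM without and 23.78 and 59.58 CPM with doxycycline (log2 change 2.16 ± 0.45, limma adjusted p = 0.0404). For c1qb the values were 7.95 and 9.32 against 23.78 and 43.27 (1.79 ± 0.41, adjusted p = 0.0468), and for cfp 4.77 and 8.02 against 17.24 and 28.32 (1.68 ± 0.39, adjusted p = 0.046). TMM scaling called 0 complement rows and 0.0218% of all rows lower in this comparison, and edgeR called 0 complement rows. After TMM scaling 7 complement rows had a limma unadjusted p below 0.05, but the share of all rows at that threshold was not counted. All 3 calls were lost after TMM scaling (adjusted p = 0.251, 0.169 and 0.215 for c1qb, c1qc and cfp). They were also lost without either M-D- library (adjusted p from 0.0943 to 0.245) or either M+D- library. Over the 8 fits without 1 library, the call was lost in 7 for c1qb, in 6 for c1qc and in 8 for cfp. DESeq2 on recovered tags gave these 3 rows no adjusted p. It called 1 other complement row lower, vtna (-1.16, DESeq2 adjusted p = 0.0435).

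C1q is made largely by macrophages. M-D+ library 2 had the highest c1qa, c1qb, c1qc, cfp and cfd, and also the highest values of many leukocyte, biliary and stellate markers. Of 16 leukocyte markers, 11 had a row, and their summed level was 201 and 234 CPM (M-D-), 319 and 295 CPM (M+D-), 304 and 755 CPM (M-D+) and 267 and 253 CPM (M+D+). Of the 11, 7 were highest in M-D+ library 2, among them coro1a (26.28 CPM), lcp1 (38.74) and mfap4.1 (9.51). The neutrophil marker mpx was not, with 37.83 CPM there, 28.53 in M-D+ library 1 and 58.95 and 62.77 in M+D-. The other neutrophil marker, lyz, was at 0.23 CPM or less in every library, and ptprc and marco had no row. The share of all rows that were highest in M-D+ library 2 was not counted, so no result is read from the 7 of 11.

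With the same limit, 6 of 7 biliary and stellate markers with a row were highest in M-D+ library 2 as well. There acta2 was at 274.77 CPM, against 30.31 or less elsewhere, and col1a1a at 62.52 CPM, against 15.69 or less. Their list summed to 2769 CPM in that library and to at most 1393 CPM in any other. The part of leukocytes, of stellate or biliary cells and of this library's other differences in the C1q values was not tested.

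**Figure D5:**
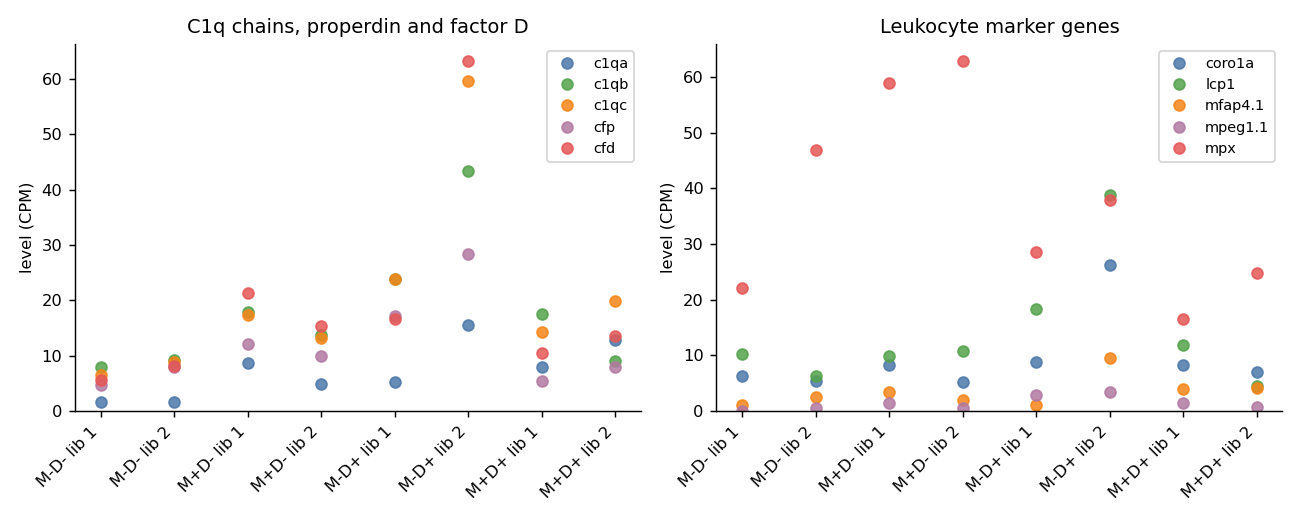
Levels (CPM, linear axis from 0) of the C1q chains, properdin (cfp) and factor D (cfd) on the left and of 5 of the 11 leukocyte markers on the right, in each library. M-D+ library 2 is highest for all 5 complement genes and for coro1a, lcp1, mfap4.1 and mpeg1.1, while mpx is highest in M+D- (58.95 and 62.77 CPM).

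The interaction asks whether doxycycline changed the transgenic livers differently from wild-type livers. It was called for hbl4 (-3.50 ± 0.58, limma adjusted p = 0.0412) and for c8g (-1.84 ± 0.46, adjusted p = 0.0486), with 7.97% of all rows called lower, 0.262% called higher and a median of all rows of -1.07. After TMM scaling, which called 0.0874% of all rows higher, neither was called (-2.51 and -0.84, adjusted p = 0.106 and 0.362). For c3a.2 it was 1.67 ± 0.54 in CPM (limma adjusted p = 0.0745) and 2.66 after TMM scaling (adjusted p = 0.0979). For c1s.2 it was -1.79 ± 0.55 (adjusted p = 0.0671), for c3b.1 0.96 ± 0.54 (adjusted p = 0.214), and for cfb -0.41 ± 0.52 (adjusted p = 0.558), where the sign turned to 0.65 after TMM scaling.

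Other cell types and the hepatocytes themselves were read in the same libraries. Of 11 hepatocyte markers 8 had a row, and fabp10a alone took 79291 to 210286 CPM in the controls and 187914 and 129776 in M+D+. The other 7 summed to 29435 to 39644 CPM in the controls and to 13638 and 20567 in M+D+. To this sum apobb.1 gave the most, except in M-D+ library 1, where rbp4 did (9894 CPM against 8717 for apobb.1). Of the 8, limma called 1 lower (apobb.1, adjusted p = 0.0278) and none higher, with 20.7% of all rows called lower and 2.32% higher. After TMM scaling it called 0 of the 8, with 5.05% of all rows called lower and 5.86% higher. The median log2 change of the 8 was -0.80 in CPM and -0.25 after TMM scaling, against -0.57 and -0.08 for all rows. Both M+D+ libraries were below all controls for 3 of the 8, as they were for 26.9% of all tested rows. The 2 M+D+ libraries parted for rbp4. It was at 3753 CPM in library 2, above 5 of the 6 controls, and at 879 CPM in library 1, below all 6. Exocrine pancreas markers (13 of 15 with a row) summed to 1259 to 4068 CPM in the controls and 672 and 1055 in M+D+, and erythrocyte markers (5 of 8) to 210 to 440 and 132 and 198. The erythrocyte sum was mostly hbba1, which was called lower in CPM (log2 change -1.16, limma adjusted p = 0.028) and not after TMM scaling (-0.62, adjusted p = 0.212), while alas2, at 24.53 and 26.54 CPM against 14.86 or less in the controls, was called higher in both (1.17 and 1.70, adjusted p = 0.0182 and 0.00882). Biliary and stellate markers (7 of 10) summed to 600 to 2769 CPM in the controls and to 408 and 928 in M+D+, and endothelial markers (2 of 8) to at most 1.19 CPM in any library. The part of these cell types in the complement values was not tested.

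Correlations over the 8 libraries, which fall into M+D+ and the rest, are a description only. The members were chosen with M+D+ differences in view, so their correlations repeat that choice and lend no support of their own. The log2 levels of c3a.2 and c3b.1 had a Pearson r of 0.92 with each other, those of hbl4 and c8g 0.96 and those of hbl4 and c1s.2 0.91, while c3a.2 against hbl4 gave -0.88. Among 3745 tested rows with a symbol, those most like c3a.2 were ptpn22 (r = 0.967), cox6a2 (0.96) and ldhba (0.951). Those most like c3b.1 were rpl22, slc25a39 and zgc:66455 (0.962 to 0.968). Like c3b.1, the rows ptpn22, ldhba and zgc:66455 reached 5 CPM only in M+D+. They passed the filter only through that group, so their likeness lends no support. The rows most like hbl4 were clasrp, itih3a.1 and nceh1b.1 (0.971 to 0.984), those most like c8g were zgc:136333, dio1 and rgs4 (0.969 to 0.99), and those most like c1s.2 were gas6, aplp1 and cyp2aa2 (0.969 to 0.971). For cfb they were rfc5, aldh7a1 and cyp2v1 (0.93 to 0.994), with the lowest level in M+D+ library 1 and the highest in M-D+ library 2, as for cfb itself.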

How the data were processed

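Values are CPM that the authors deposited per transcript, identified by GI number and RefSeq accession. The sources used here do not name the aligner, the build or the rule for assigning tags. Transcripts absent from a library's list were set to 0. In every library 100% of the CPM were whole multiples of 1 tag (within 0.1 tag). Accessions were matched to symbols with RefSeq (GRCz12tu), which gave 10410 of 15600 rows a name.

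Tests used limma 3.58.1 (R 4.3.3) on log2(CPM + 1) with an intensity trend, fitting 4 group means to 8 libraries (4 residual degrees of freedom), two-sided, with Benjamini-Hochberg adjustment over 4577 rows with at least 5 CPM in at least 2 libraries. An adjusted p given without a tool is from this test, on CPM or after TMM scaling. Alternatives were edgeR 4.0.16 (quasi-likelihood) and DESeq2 1.42.0 on recovered tags, other filters and pseudocounts, a replicate block and leaving out 1 library. Limma and edgeR were tested on simulated data. Within-group library pairs differed beyond counting noise (lowest chi-square 47.3 per degree of freedom).

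Members and lists were chosen with earlier results of these data known. Named are the 6 members and the other complement rows called in any comparison. Also named are the 2 most abundant rows of some but not all complement lists, and the 3 rows most correlated with each member. The genes c3b.2, c3a.6, c1s.1 and c1qa and single marker genes were named after their values were seen.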

Additional observations from a re-analysis of the deposited data

Results flagged for a closer look

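For 3 complement genes the effect of doxycycline differed between transgenic and wild-type livers by the interaction test on CPM. The log2 difference was -3.50 for hbl4, -1.84 for c8g and -2.33 for cfp (limma adjusted p = 0.0412, 0.0486 and 0.0472, 2 libraries a group). Of all rows, 7.97% were called lower in this test, and the median of all rows was -1.07. Both libraries of M+D+ were lower than both of M+D- for all 3 genes. In wild-type fish both M-D+ libraries were above both M-D- libraries for hbl4 and cfp, and for c8g the 2 groups overlapped. All-row medians leaned the same way, at -0.30 for M+D+ against M+D- and 0.72 for M-D+ against M-D-. How many of all rows separate in these ways was not counted. The 3 genes were picked by the interaction test on the same values, so their separation lends no support of its own. After TMM scaling no complement row was called, with differences of -2.51, -0.84 and -1.37 (adjusted p = 0.106, 0.362 and 0.265). DESeq2 on recovered tags called hbl4 (-2.53, adjusted p = 0.013) and c3a.2 (2.78, adjusted p = 0.0135), and not c8g or cfp (adjusted p = 0.668 and 0.459). With 1 library left out, the limma call was lost in 5 of 8 fits for hbl4, in 7 of 8 for c8g and in 7 of 8 for cfp.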

How the results depend on the processing

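The number of complement rows called for M+D+ against the averaged controls was 8 (2 higher, 6 lower), with 2.32% of all rows called higher and 20.7% lower. It was 5 without a filter, with the replicate block and with the controls limited to M-D- and M+D- (1 higher, 4 lower each). In edgeR it was also 5 (3 higher, 2 lower), and in DESeq2 it was 7 (5 higher, 2 lower). The rises in both included c3b.1 and c3b.2, which passed the filter only through M+D+. Shares of all rows called in edgeR, in DESeq2 and under the other filters are not given here, so no result is read from those counts. Against M-D- the number of complement rows called was 3 (1 higher, 2 lower). It was 5 after TMM scaling and in edgeR (3 higher, 2 lower each) and 5 with a filter of 20 CPM (1 higher, 4 lower). The rises added after TMM scaling and in edgeR were c3b.1, which passed the filter only through M+D+, and c1qa. For c1qa the changes were 2.37 and 2.89 (limma and edgeR adjusted p = 0.038 and 0.0453), from 1.59 and 1.73 CPM in M-D-. Against M+D- the number of rows called was 4, with 2 without a filter and in edgeR and 1 with the replicate block. Against M-D+ it was 9 (2 higher, 7 lower). After TMM scaling, in edgeR and in DESeq2 it was 5 (4 higher, 1 lower each), with c3b.1 and c3b.2 among the 4. For M-D+ against M-D- it was 3, all higher, with 1 higher at a pseudocount of 0.5. DESeq2 called 0 higher and 1 lower there, vtna. The number was 0 after TMM scaling, without a filter, in edgeR and with the replicate block. For the interaction it was 3, and 0 after TMM scaling, without a filter, in edgeR and with the replicate block. Leaving out 1 library at a time gave 1 to 9, 0 to 5, 0 to 4, 3 to 10, 0 to 3 and 0 to 6 calls in the same order, and M+D- against M-D- stayed at 0 in every setting. The lowest count of the first comparison was without M+D+ library 1, and the cause was not tested. In these fits a group with 1 library is assumed to vary like the others.

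The log2 change of cfb was negative in CPM and positive for M+D+ against the averaged controls after TMM scaling, in edgeR and in DESeq2 (0.11, 0.0917 and 0.14), against M-D+ (0.49, 0.45 and 0.53) and in the interaction (0.65, 0.61 and 0.68), and in DESeq2 against M+D- (0.0298). That of c1r turned to 0.17, 0.21 and 0.26 in the same 3 settings, and ran from -0.88 to 0.18 when 1 library was left out. The log2 difference of the C3 ratio was 2.81, and 2.15 with all tested rows, of which c3b.1 and c3b.2 passed the filter only through M+D+. It was 3.36 as a mean of logs, 4.13 without cfb (added after the data were seen) and 2.54 to 3.07 without 1 library. Deviations from group means of same-numbered libraries correlated at -0.333 to 0.0447 between groups. With 2 libraries a group this cannot show whether the replicate numbers mark shared fish, pools or days. Depth limits c3b.1 most, with 6 to 52 tags a library.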

Other observations

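Complement C3 and factor B belong to the acute-phase proteins in mammals, so the other acute-phase genes were read as a list. Of 21 symbols 11 had a row and 7 were tested for M+D+ against the averaged controls. Limma called none of the 7 higher and 1 lower, the fibrinogen gamma chain fgg, with 2.32% of all rows called higher and 20.7% lower. The level of fgg was 1425 and 2185 CPM in M+D+ and 3056 to 5989 CPM in the controls (log2 change -1.15 ± 0.30, limma adjusted p = 0.0311), and TMM scaling removed this call (-0.61, adjusted p = 0.216). The fibrinogen beta chain fgb stood at 2851 and 3847 CPM in M+D+ and at 5035 CPM or more in the 6 controls (log2 change -0.98 ± 0.33, adjusted p = 0.0616). For the pentraxin gene crp3 the log2 change was 0.77 ± 0.32 (adjusted p = 0.108). It was called higher after TMM scaling (1.32, adjusted p = 0.0284) and in edgeR (1.33, edgeR adjusted p = 0.027). Like fgb, crp4 and saa, it was named after its values were seen. Its highest level was 674 CPM in M+D+ library 2, but M-D+, at 539 and 564 CPM, was above M+D+ library 1 at 407. The row crp4 had a log2 change of 1.31 ± 0.52 (adjusted p = 0.0997), 1.79 after TMM scaling (adjusted p = 0.0593) and 2.31 in edgeR (edgeR adjusted p = 0.0494). It stood at 5.63 and 5.59 CPM in M+D+ and at 9.97 CPM in M-D+ library 2. No other library reached 5 CPM, so that crp4 passed the filter only through M+D+. The serum amyloid gene saa was at 1.59 CPM or less in every library.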
